A study of Mus musculus with 23 samples.

Results

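The DNA replication genes examined here were 39 genes chosen by symbol for their work at the replication fork: origin licensing factors, the MCM2-7 helicase and its activators, the sliding clamp and its loader, the polymerases and primase, Okazaki fragment enzymes, nucleotide suppliers, chromatin-copying factors and E2f1. All 39 were listed in both expression tables, among 11548 genes for naive B cells and 10574 genes for cultured B cells. The study profiled the transcripts of B cells from mouse spleen after guide RNAs against Irf8, the gene of the lineage transcription factor IRF8. The 23 libraries formed 8 groups: naive KO of guide 1 and of guide 2 with a naive WT group for each (3 libraries per group), activated KO and WT (3 each), and plasmablast KO (3) and WT (2). The KO gate took Thy1.1-positive cells, which carried a guide (guide 1 in all cultured KO cells), and the WT gate took Thy1.1-negative cells without one. Naive cells were B220-positive and untreated. Activated cells (B220- and GL7-positive, CD138-negative) and plasmablasts (CD138-positive, labelled plasma cells) came from naive B cells cultured for 72 hours with LPS, IL-2 and IL-5. CD11b, F4/80 and Thy1.2 were sorted out in every group. The labels used here do not give the age or strain of the mice, how the guide was delivered, or whether libraries came from separate animals, so p-values measure the spread between these libraries.

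Origins are licensed in G1, when ORC, CDC6 and CDT1 load the MCM2-7 ring onto them. Replication begins in S phase, when CDC45 and the GINS complex turn that ring into a running helicase. Primase and polymerase alpha then start each strand, PCNA tethers the polymerases delta and epsilon, and FEN1 and LIG1 join the lagging-strand fragments. Many of these genes are transcribed in late G1 under E2F factors, resting B cells sit outside the cycle, and B cells given LPS divide repeatedly before and while they become plasmablasts.

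Promoter sequence was available for 32 of the 39 genes in RefSeq (GRCm38.p6), and 4 stretches upstream of annotated starts are shown because they hold E2F-type letters, which more of these genes than of all genes had. The letters searched were TTTCCCGC, TTTCGCGC, TTTGCCGC and TTTGGCGC, on both strands, within the 250 bases before the start, and matches may overlap. Capitals mark the match, which in Mcm5 is a pair of overlapping matches on opposite strands.
Mcm5 (chr8:75109330-75109397, plus strand): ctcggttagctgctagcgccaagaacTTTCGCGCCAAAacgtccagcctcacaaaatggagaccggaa
Mcm6 (chr1:128359715-128359782, minus strand): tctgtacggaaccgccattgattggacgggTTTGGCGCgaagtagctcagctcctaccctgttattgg
Gins3 (chr8:95633488-95633555, plus strand): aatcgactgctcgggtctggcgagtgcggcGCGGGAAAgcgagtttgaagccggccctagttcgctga
Rfc3 (chr5:151651209-151651248, minus strand): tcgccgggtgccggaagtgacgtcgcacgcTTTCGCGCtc
A gene may have more than 1 annotated start (a mean of 1.16 promoters per member and 1.27 per gene of the tables), and it was counted where any of its promoters held a match. At least 1 match was present for 9 of the 32 genes (28.1%), against 3.99% of the 9601 genes of the tables with a promoter and 2.16% of all 27025 genes with a promoter in RefSeq. Among 18 G2/M genes, which act later in the cycle, 1 had a match (5.56%). CCAAT on either strand was present for 19 of the 32 genes (59.4%), against 88.9% of the G2/M genes and 41.3% of the genes of the tables. These are matches of letters and were not tested as binding sites.

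The estimated number of reads assigned to genes was 14490000 to 22160000 per naive library and 4323000 to 26890000 per cultured library, except that plasmablast KO library 3 held 51270, with 1984 genes and 4 of the 39 members listed at 0. Irf8 mRNA, which need not fall when a guide edits the gene, was at 47.6 to 77.7 RPKM (reads scaled to gene length and library size) in naive KO and 79.8 to 98.0 RPKM in naive WT libraries. The activated libraries numbered 3 went against their labels. Thy1 was at 22.0 and 27.8 RPKM in activated KO libraries 1 and 2 and 0.093 RPKM in the library labelled KO number 3, against 0.013 and 0.055 RPKM in activated WT libraries 1 and 2 and 25.7 RPKM in the library labelled WT number 3. Irf8 was at 69.2 and 68.1 RPKM in activated KO libraries 1 and 2 and 92.4 RPKM in the library labelled KO number 3, against 108.5 and 93.6 RPKM in activated WT libraries 1 and 2 and 60.0 RPKM in the library labelled WT number 3. Naive KO guide 1 library A also stood apart, with 1405 genes and 5 members at 0, and naive WT guide 1 library A had Thy1 at 4.93 RPKM, against at most 0.052 RPKM in the other naive WT libraries. The 7 B cell markers summed to between 2910 and 3720 RPKM in every naive library, and none of the 6 neutrophil markers was listed in either table. The 7 plasmablast markers summed to 2070 to 3520 RPKM in plasmablast KO and 2900 to 5220 RPKM in plasmablast WT libraries, against 1580 to 1980 RPKM in libraries labelled activated KO and 1100 to 2870 RPKM in those labelled activated WT.

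Activated B cells held far more RNA of the replication genes than naive B cells. The tables were made separately, so this comparison is a description with no test. For 34 of the 39 genes every activated library was above every naive library, against 18.3% of the 10178 genes in both tables, and for none was every activated library below (15.3% of all genes). The median ratio of the activated WT mean to the naive WT mean was 4.83 over the members and 0.974 over all genes. These are shares of each library, and more dividing cells cannot be told apart from more RNA per cell. For Cdc6, Mcm10, Gins2, Tyms, Orc1 and Chaf1a the naive WT mean was under 1 RPKM (0.435 for Mcm10 to 0.927 for Chaf1a). The size of their ratios, and their rank among the members, rests on values near 0.

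**Figure D1:**
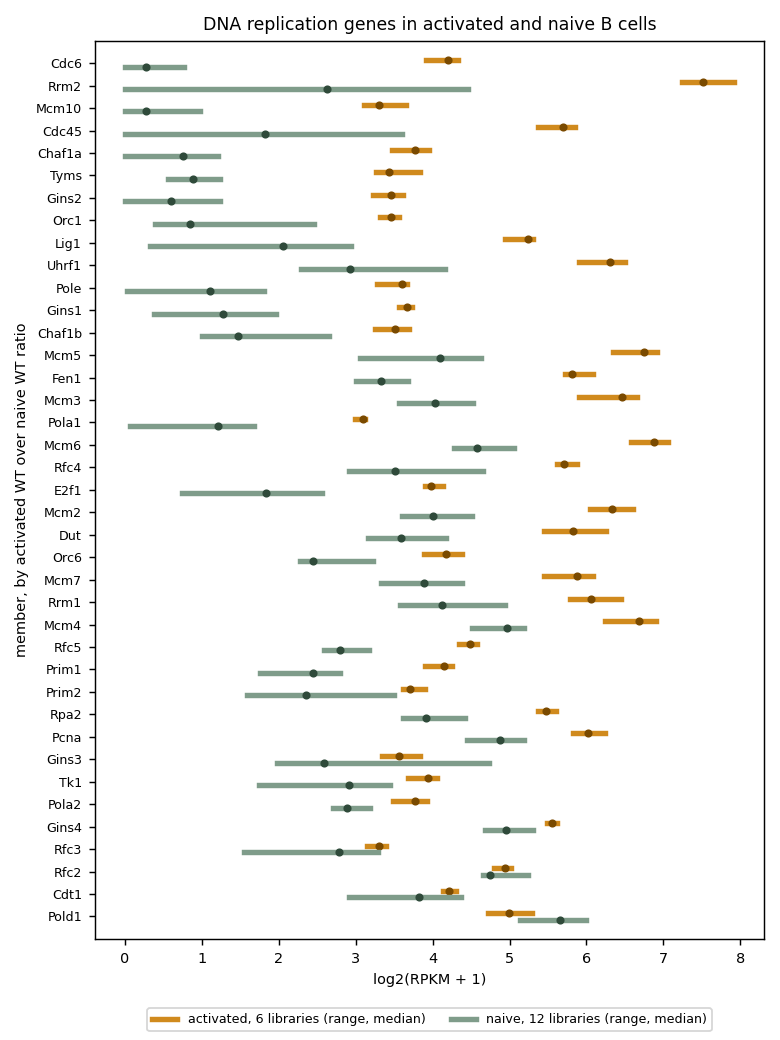
Range (bar) and median (point) of log2(RPKM + 1) of each of the 39 genes in 6 activated libraries (upper bar, orange) and 12 naive libraries (lower bar, green), ordered by the ratio of activated WT to naive WT. The bars are apart for 34 genes, and Pold1 at the bottom is the gene whose activated WT mean was below its naive WT mean.

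Origin licensing genes were split. Cdc6, which helps load MCM2-7, had the highest ratio of all members, 33.8, with 14.1 to 19.2 RPKM in activated libraries and 0 to 0.696 RPKM in naive libraries. Orc1 and Orc6, subunits of the origin recognition complex, had ratios of 11.2 and 3.91. Cdt1, the partner of Cdc6, was at 17.3, 17.7 and 18.8 RPKM in libraries labelled activated KO and 16.6, 17.1 and 18.8 RPKM in those labelled activated WT, against a lowest, median and highest of 6.54, 13.1 and 19.6 RPKM in naive libraries. Its activated and naive libraries overlapped, and its ratio was 1.11.

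The 6 MCM2-7 subunits were already at 13.8 to 30.2 RPKM by their naive medians, and their ratios lay between 3.42 for Mcm4 and 5.71 for Mcm5. Mcm6 was at 95.0, 106 and 130.3 RPKM in libraries labelled activated KO and 109, 125 and 132 RPKM in those labelled activated WT, against 18.4, 22.9 and 32.4 RPKM as the lowest, median and highest naive values. No activated library came near the naive range. The helicase activators spread more widely. Mcm10, which acts as the helicase starts, had a ratio of 21.0, and Cdc45 had a ratio of 17.5. Cdc45 was at 40.5, 45.2 and 54.8 RPKM in libraries labelled activated KO and 49.2, 52.5 and 56.8 RPKM in those labelled activated WT, against 0, 2.52 and 11.1 RPKM as the lowest, median and highest naive values. The 4 subunits of the GINS complex differed among themselves, with ratios of 12.9 for Gins2, 7.41 for Gins1, 2.12 for Gins3 and 1.35 for Gins4. Gins4 was at a naive median of 29.9 RPKM, while Gins2 was at 0.515 RPKM. Gins3 overlapped between stages through naive KO guide 1 library A, which stood at 25.7 RPKM, with its other naive libraries at 2.92 to 6.47 RPKM.

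Of the clamp and its loader, Pcna had a ratio of 2.29, with 55.7, 57.2 and 74.5 RPKM in libraries labelled activated KO and 63.3, 64.3 and 67.9 RPKM in those labelled activated WT, against 20.8, 28.3 and 35.6 RPKM as the lowest, median and highest naive values. The loader subunits ran from 5.15 for Rfc4 and 3.35 for Rfc5 down to 1.21 for Rfc3 and 1.16 for Rfc2, and the last pair overlapped between stages. The polymerases and primase also diverged. The catalytic subunits of polymerases epsilon (Pole) and alpha (Pola1) had ratios of 7.69 and 5.21, the primase genes Prim1 and Prim2 had 3.31 and 3.16, and Pola2 had 1.80. Pold1, the catalytic subunit of polymerase delta, was at 25.3, 27.0 and 38.1 RPKM in libraries labelled activated KO and 33.4, 34.5 and 28.4 RPKM in those labelled activated WT, against 34.2, 49.4 and 62.8 RPKM as the lowest, median and highest naive values. Its ratio of 0.579 was the only one of the 39 below 1, and 2 of the 6 activated libraries lay inside the naive range.

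Fen1, which trims the flaps of Okazaki fragments, had a ratio of 5.57, with 52.3, 53.7 and 61.0 RPKM in libraries labelled activated KO and 52.0, 56.9 and 66.8 RPKM in those labelled activated WT, against 7.01, 9.09 and 11.8 RPKM as the lowest, median and highest naive values. Lig1, the ligase that seals them, had a ratio of 8.56, and Rpa2, a subunit of the single-strand binding protein, had 3.16. Rrm2, the small subunit of ribonucleotide reductase, was the most abundant member in culture, at 151, 167 and 241 RPKM in libraries labelled activated KO and 168, 195 and 238 RPKM in those labelled activated WT, against 0, 5.15 and 21.1 RPKM as the lowest, median and highest naive values. Its ratio was 22.9, while that of Rrm1, the large subunit, was 3.55. Tyms, which makes thymidylate, had a ratio of 13.2, Dut, the dUTPase, had 4.56, and Tk1, thymidine kinase, had 2.09. The chromatin assembly genes Chaf1a and Chaf1b had ratios of 13.9 and 6.84. Uhrf1, which carries DNA methylation to new strands, had 8.45, with 58.8, 71.5 and 89.7 RPKM in libraries labelled activated KO and 79.7, 82.3 and 76.5 RPKM in those labelled activated WT, against 3.87, 6.61 and 16.9 RPKM as the lowest, median and highest naive values. E2f1, itself an E2F factor, had a ratio of 4.83, and its activated libraries lay between 14.0 and 16.6 RPKM, above its naive highest of 4.92 RPKM.

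**Figure D2:**
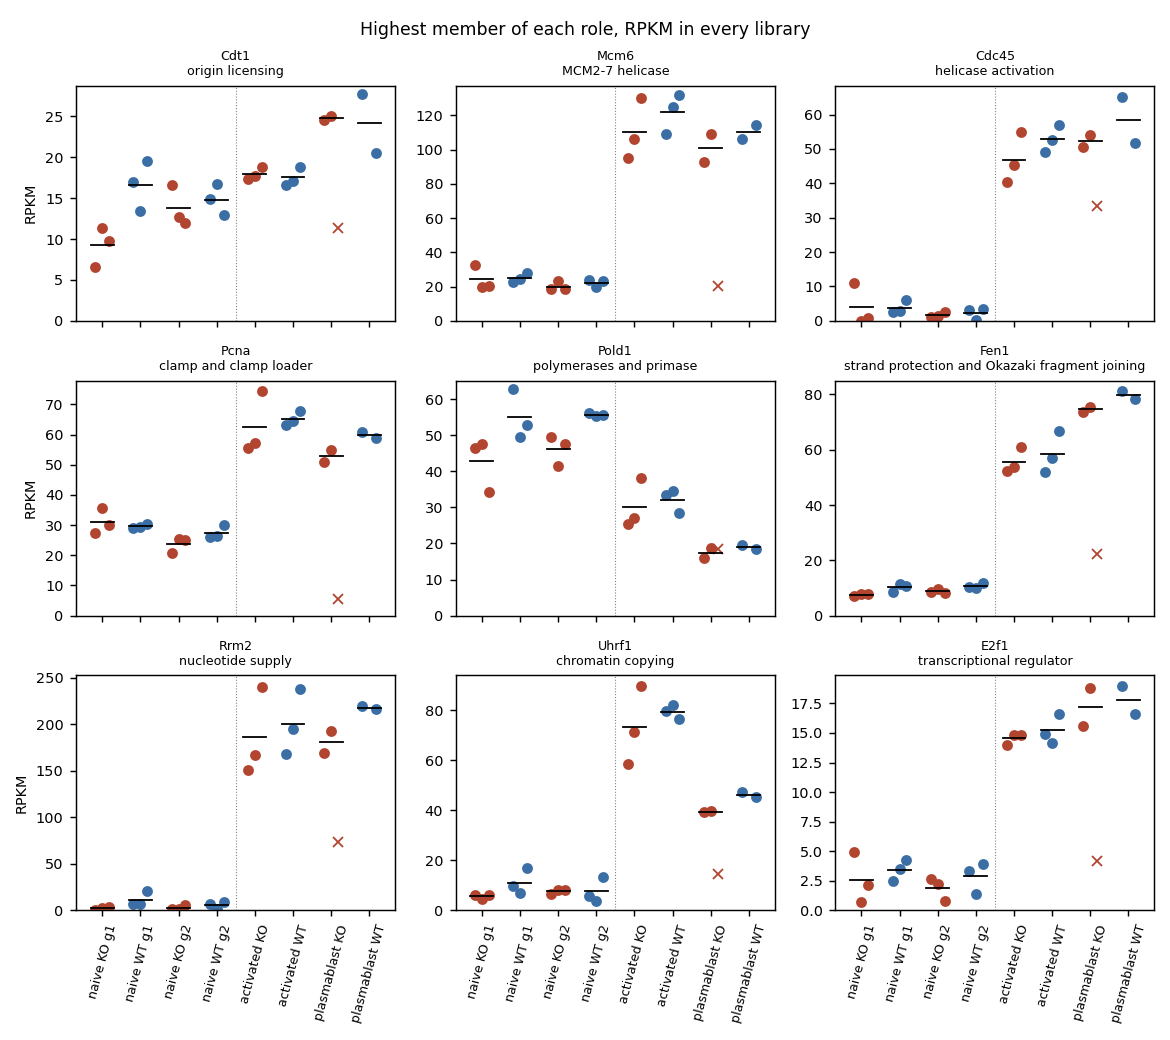
RPKM in every library of the gene with the highest mean cultured level in each role; red is KO and blue is WT as labelled, lines are group means, and the cross is plasmablast KO library 3, which is left out of its mean. The dotted line separates the naive from the cultured table. Activated libraries are above all naive libraries for 7 of the 9 genes, Pold1 is lower in cultured cells, and Uhrf1 and Pold1 are lower in plasmablasts than in activated cells.

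In naive B cells Mcm5 was lower in Irf8 KO than in WT, and no other member passed the test. Mcm5 (chr8:75109468-75128439, GRCm38), a subunit of the MCM2-7 ring, was at 7.31, 10.1 and 10.6 RPKM in KO guide 1 and 9.93, 12.7 and 15.7 RPKM in KO guide 2 libraries, against 18.6, 16.9 and 23.8 RPKM in WT guide 1 and 17.3, 16.5 and 20.3 RPKM in WT guide 2 libraries. No KO library reached the lowest WT library. The means were 11.1 ± 2.86 RPKM in KO and 18.9 ± 2.76 RPKM in WT (SD, n = 6 each). The difference over both guides on the log2(RPKM + 1) scale, as for all log2 differences here, was -0.75 (SE 0.14, adjusted p = 0.0188, limma's moderated test). It was the only call among the 37 members that passed the filter on low values, where Cdc6 and Mcm10 did not, and 1.88% of all 10137 genes tested were called (0.858% lower). It lost its call in 4 of 17 alternatives, when naive KO guide 2 library A or B, or WT library C of either guide, was left out (adjusted p from 0.00833 to 0.0635 over the alternatives), and it kept its direction in all 17.

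Pold1 and the clamp loader gene Rfc3 were also lower in all 6 naive KO libraries than in all 6 WT libraries, which held for 0.927% of the genes tested. Pold1 averaged 44.4 ± 5.69 RPKM in KO and 55.4 ± 4.40 RPKM in WT (SD, n = 6 each), a log2 difference of -0.32 (SE 0.10, adjusted p = 0.168, limma). Rfc3 averaged 4.80 ± 1.45 RPKM in KO and 7.56 ± 0.959 RPKM in WT (SD, n = 6 each), a log2 difference of -0.61 (SE 0.19, adjusted p = 0.169, limma). Neither passed the threshold. The difference of largest size was that of Rrm2, -1.39 (SE 0.48, adjusted p = 0.221, limma), with 0, 2.83 and 4.12 RPKM in KO guide 1 and 1.43, 1.71 and 6.18 RPKM in KO guide 2 libraries, against 6.50, 6.40 and 21.1 RPKM in WT guide 1 and 7.18, 1.89 and 9.29 RPKM in WT guide 2 libraries. Its KO and WT libraries overlapped. Lig1 had a log2 difference of -0.71 (SE 0.31, adjusted p = 0.367, limma).

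**Figure D3:**
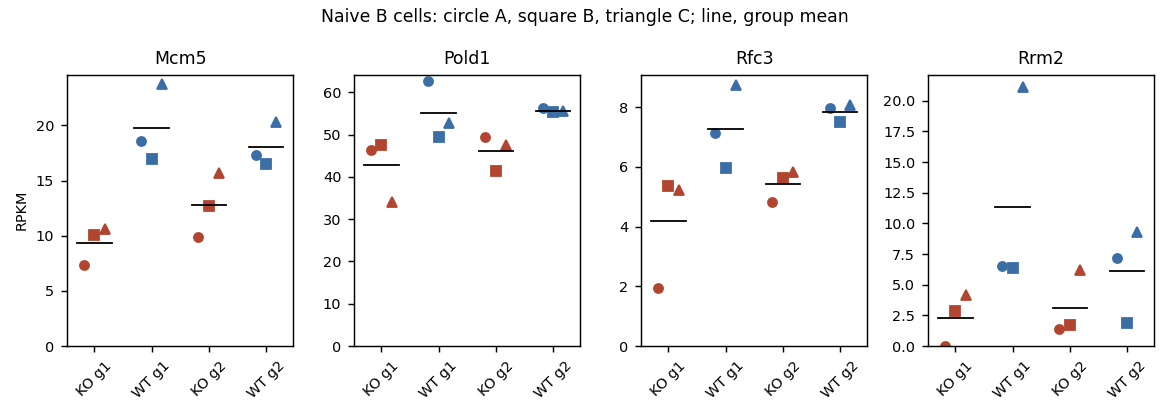
RPKM of Mcm5, Pold1, Rfc3 and Rrm2 in the 12 naive libraries by genotype and guide; red is KO, blue is WT, and the line is the group mean. The KO libraries of Mcm5, Pold1 and Rfc3 are all below the WT libraries, and those of Rrm2 overlap.

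Of the 37 members tested in naive cells, 28 had a negative and 9 a positive difference, with a median of -0.208 against -0.020 over all genes, and 8 (21.6%) had an unadjusted p under 0.05, against 12.7% of all genes. The members come from the same libraries and are not replicates of a condition, so this split is a description with no test. The other 5 MCM2-7 subunits were among the negative ones (-0.11 for Mcm6 to -0.32 for Mcm7) and were not called. With naive KO guide 1 library A left out, Dut joined Mcm5 among the calls, at -0.46 (SE 0.098, adjusted p = 0.0171, limma), where 3.84% of genes were called, and without naive KO guide 1 library B there were likewise 2 calls. By guide, Mcm5 had a log2 difference of -1.01 for guide 1 (SE 0.20, adjusted p = 0.0347, limma, where 1.11% of genes were called) and of -0.48 for guide 2 (SE 0.20, adjusted p = 1). The guide 1 call was kept in 8 of 17 alternatives. It was lost with the replicate letter as a block and when KO guide 2 library B or any of the 6 WT libraries was left out. It was also lost when KO and WT guide 1 libraries A were left out together. No member was called for guide 2, with 1 at an unadjusted p under 0.05 (2.7% of members, against 4.2% of genes) and 0.0296% of genes called. The difference between the guides called no member and no gene (1 member and 479 genes at an unadjusted p under 0.05). The summed RPKM of 21 G2/M genes was 15.5 to 37.3 in naive KO libraries and 18.9 to 135 in naive WT libraries. The 135 was in WT guide 1 library C, and the next WT library had 48.1. Library C also had the highest WT values of Mcm5 (23.8 RPKM) and Rrm2 (21.1 RPKM). Without it Mcm5 had an adjusted p of 0.0635 (limma) and was not called. Natural killer cell markers, of which 4 of 6 were listed, summed to 0.013 to 0.688 RPKM in KO and 0.261 to 14.1 RPKM in WT. Macrophage markers, 6 of 7 listed, summed to 5.17 to 25.6 RPKM in KO and 5.24 to 12.1 RPKM in WT. Their part in the result was not tested.

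In activated B cells no member was called between KO and WT, nor was any of 9986 genes (background 0%), and 2 genes and no member had an unadjusted p under 0.05. The differences of largest size were those of Mcm3 at -0.22 (SE 0.32), Mcm4 at -0.21 (SE 0.38) and Cdc45 at -0.18 (SE 0.23). The direction followed the library number. Each number sets 1 library labelled KO against 1 labelled WT, so its members are not replicates of a condition. In number 1, 33 of the 39 members were lower in the library labelled KO than in that labelled WT (median log2 ratio -0.21), against 53.9% of all genes, and in number 2 again 33 were lower (median -0.17), against 46.9% of all genes. In number 3, whose Thy1 levels go against the labels, 8 were lower and 31 higher in the library labelled KO (median 0.11), against 43.9% of all genes lower. Mcm3, for example, was at 58.8 and 75.3 RPKM in KO libraries 1 and 2 and 100 RPKM in the library labelled KO number 3, against 85.6 and 93.5 RPKM in WT libraries 1 and 2 and 88.5 RPKM in the library labelled WT number 3.

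With both number 3 libraries left out, 36 of the 39 differences were negative (median -0.188, against -0.007 over all genes), and no member and 0.01% of genes were called. Here too the members are not replicates of a condition. With plasmablast KO library 3 left out as well, which narrows the shared estimate of the spread, the smallest adjusted p of a member was 0.154 (limma), for Mcm3 at -0.42 (SE 0.13), 9 members (23.1%) had an unadjusted p under 0.05, against 12% of all genes, and 0.71% of genes were called. Pold1 followed at -0.36 (SE 0.11, adjusted p = 0.164) and Uhrf1 at -0.32 (SE 0.11, adjusted p = 0.237).

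**Figure D4:**
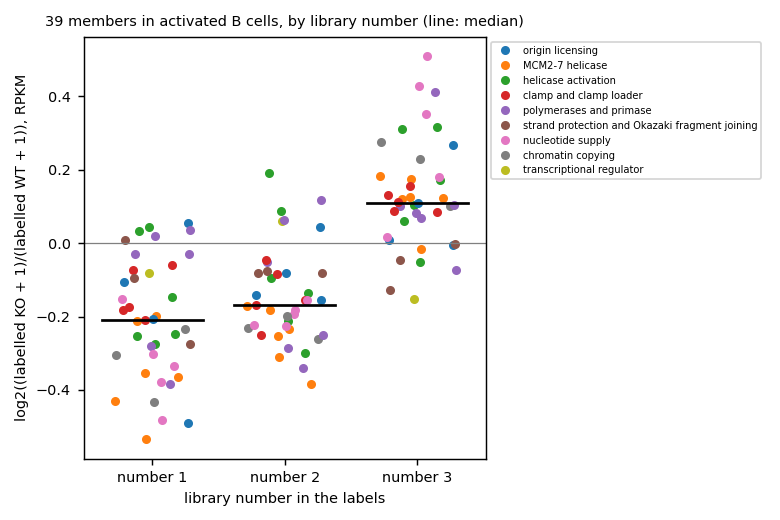
Log2 ratio of RPKM + 1 in the library labelled KO to that in the library labelled WT of the same number, for the 39 genes in activated B cells, coloured by role; the line is the median. Medians are -0.21, -0.17 and 0.11 for numbers 1, 2 and 3.

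In plasmablasts no member was called between KO and WT (background 0%, and 85 genes but no member at an unadjusted p under 0.05). The median difference over the members was -0.413 with all libraries and -0.095 without plasmablast KO library 3, against -0.121 and 0.037 over all genes. Without that library the differences of largest size were those of Dut at -0.27 (SE 0.22), Rrm2 at -0.27 (SE 0.22) and Chaf1b at -0.23 (SE 0.18), each with an adjusted p of 1 by limma. Rrm2 was at 169, 192 and 73.4 RPKM in plasmablast KO libraries 1, 2 and 3, against 220.0 and 216 RPKM in plasmablast WT libraries. The value of KO library 3 is the lowest, and at its depth Rrm2 rests on an estimated 14.0 reads. Whether the KO difference itself differed between plasmablasts and activated cells was tested as an interaction, which called no member and no gene, with or without that library (10 genes at an unadjusted p under 0.05 with it and 113 without, and no member in either). Both of these fits keep the activated libraries numbered 3, which go against their labels. With those and plasmablast KO library 3 left out, the interaction called 3 of 9861 genes (0.0304%) and no member.

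From activated cells to plasmablasts some replication genes rose and more fell, in shares near those of all genes. With all libraries, no member was called in WT (1.76% of genes called; 5.13% of members against 13.7% of genes at an unadjusted p under 0.05), and Chaf1b was called in KO at -1.02 (SE 0.22, adjusted p = 0.0381, limma), where 3.44% of genes were called, a call kept in 5 of 17 alternatives. Without plasmablast KO library 3, a fit chosen after its depth had been seen, 12 members were called in KO (2 higher and 10 lower) and 14 in WT (3 higher and 11 lower). The background was then 30.7% of genes in KO and 33.4% in WT, so the members' shares of 30.8% and 35.9% were near that of all genes. By direction, 25.6% of members against 18.5% of genes were lower in KO plasmablasts and 28.2% against 21.4% in WT plasmablasts, and 5.13% against 12.2% were higher in KO and 7.69% against 12% in WT. In all, 11 members were called in both genotypes, which is 91.7% of the KO calls and 78.6% of the WT calls. The same overlap over all genes was not counted, and both comparisons use a shared estimate of the spread. This overlap therefore cannot be read as a trait of the members. The KO and WT differences that follow leave out plasmablast KO library 3, and the difference between genotypes was not called for any member. These differences, and the counts above, keep the activated libraries numbered 3, whose Thy1 goes against their labels. Dut, for example, was at 42.5 to 48.3 RPKM in activated KO libraries 1 and 2 and 75.3 RPKM in that labelled KO number 3. In activated WT it was at 55.4 to 55.6 RPKM in libraries 1 and 2 and 58.8 RPKM in number 3. Counts of calls without the number 3 libraries are given at the end. Markers of B cells and of other cells were also compared between these stages, and the macrophage sums overlapped in WT. The 7 B cell markers summed to 1270 to 1280 RPKM in plasmablast KO libraries 1 and 2 and 1250 to 1580 RPKM in plasmablast WT libraries, against 1870 to 1950 RPKM in libraries labelled activated KO and 1750 to 2430 RPKM in those labelled activated WT. Of 6 erythroid markers 1 was listed, Hbb-bt, at 0.936 to 2.6 RPKM in plasmablast KO libraries 1 and 2 and 0.329 to 1.06 RPKM in plasmablast WT libraries, against 5.65 to 12.1 RPKM in activated KO and 3.11 to 11.7 RPKM in activated WT. Of 6 dendritic cell markers 1 was listed, Flt3, at 5.28 to 5.34 RPKM in plasmablast KO libraries 1 and 2 and 4.2 to 5.72 RPKM in plasmablast WT libraries, against 12 to 16.4 RPKM in activated KO and 8.38 to 22.2 RPKM in activated WT. Of 7 T cell markers 1 was listed, Lck, at 0.67 to 1.02 RPKM in plasmablast KO libraries 1 and 2 and 0.246 to 0.728 RPKM in plasmablast WT libraries, against 3.49 to 5.04 RPKM in activated KO and 3.41 to 3.61 RPKM in activated WT. Cd68 and Itgam, the 2 listed of 7 macrophage markers, summed to 3.63 to 4.65 RPKM in plasmablast KO libraries 1 and 2 and 4.17 to 5.33 RPKM in plasmablast WT libraries, against 6.37 to 7.81 RPKM in activated KO and 3.94 to 7.51 RPKM in activated WT. In plasmablast KO library 3 Lck was at 53.9 RPKM and Flt3 at 37.9 RPKM. The part of these markers in the result was not tested.

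The members that rose were few. Cdt1 was at 24.6 and 25.1 RPKM in plasmablast KO libraries 1 and 2 and 27.7 and 20.6 RPKM in plasmablast WT libraries, above every activated library, of which the highest was 18.8 RPKM. Its log2 difference was 0.45 in KO (SE 0.13, adjusted p = 0.0212) and 0.43 in WT (SE 0.13, adjusted p = 0.0246, limma). Fen1 was at 73.6 and 75.6 RPKM in plasmablast KO libraries 1 and 2 and 81.3 and 78.2 RPKM in plasmablast WT libraries, again above every activated library. Its difference was 0.42 in KO (SE 0.13, adjusted p = 0.0251) and 0.45 in WT (SE 0.13, adjusted p = 0.0168, limma). Gins4 was called in WT at 0.40 (SE 0.13, adjusted p = 0.0323) and had 0.21 in KO (SE 0.13, adjusted p = 0.241).

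The members that fell included the catalytic polymerase genes, several MCM2-7 subunits and 2 of the 3 chromatin-copying genes, Uhrf1 and Chaf1b. Uhrf1 was at 39.3 and 39.6 RPKM in plasmablast KO libraries 1 and 2 and 47.2 and 45.3 RPKM in plasmablast WT libraries, below every activated library, of which the lowest was 58.8 RPKM. Its difference was -0.86 in KO (SE 0.15, adjusted p = 0.00149) and -0.77 in WT (SE 0.15, adjusted p = 0.00236, limma). Chaf1b had -0.83 in KO and -0.69 in WT (SE 0.16 each, adjusted p = 0.00297 and 0.00693). Chaf1a had -0.28 in KO and -0.35 in WT (SE 0.16 each) and was not called (adjusted p = 0.195 and 0.104, limma).

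Pold1 was at 16.0 and 18.6 RPKM in plasmablast KO libraries 1 and 2 and 19.5 and 18.5 RPKM in plasmablast WT libraries, below every activated library, of which the lowest was 25.3 RPKM. Its difference was -0.75 in KO (SE 0.16, adjusted p = 0.00532) and -0.72 in WT (SE 0.16, adjusted p = 0.00555, limma). Together with its lower level in activated than in naive cells, this gave Pold1 its lowest level in plasmablasts. Pola1 had -0.71 in KO and -0.51 in WT, and Pole had -0.52 in KO and -0.59 in WT, all called. Pola2, Prim1 and Prim2, which work with Pola1 in the polymerase alpha-primase complex, were not called in either genotype (-0.33 to 0.18).

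Of the MCM2-7 subunits, Mcm4 had -0.63 in KO and -0.67 in WT and Mcm3 had -0.60 in KO and -0.63 in WT, all called, while Mcm5 was called in WT and not in KO (-0.43 in KO, adjusted p = 0.0646, and -0.50 in WT, adjusted p = 0.0330, limma). Mcm6 had -0.12 in KO and -0.14 in WT and was not called, with 92.7 and 109 RPKM in plasmablast KO libraries 1 and 2 and 106 and 114 RPKM in plasmablast WT libraries, inside the activated range except for KO library 1, just under it. Among nucleotide suppliers, Rrm1 fell by 0.76 in KO and by 0.63 in WT on the log2 scale and Tk1 by 0.46 in KO and by 0.57 in WT. Dut was called in KO and not in WT (-0.71 in KO, adjusted p = 0.0185, and -0.51 in WT, adjusted p = 0.0669, limma). Rrm2, the partner of Rrm1 in the same enzyme, had -0.02 in KO and 0.14 in WT (SE 0.20 each) and was not called. Orc6 was called in WT and not in KO (-0.40 in KO, adjusted p = 0.0923, and -0.56 in WT, adjusted p = 0.0246, limma). No clamp or clamp loader gene was called, with Pcna at -0.22 in KO and -0.12 in WT, Rfc2 at -0.18 in KO and -0.27 in WT. E2f1 had 0.22 in KO and 0.21 in WT and was not called.

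**Figure D5:**
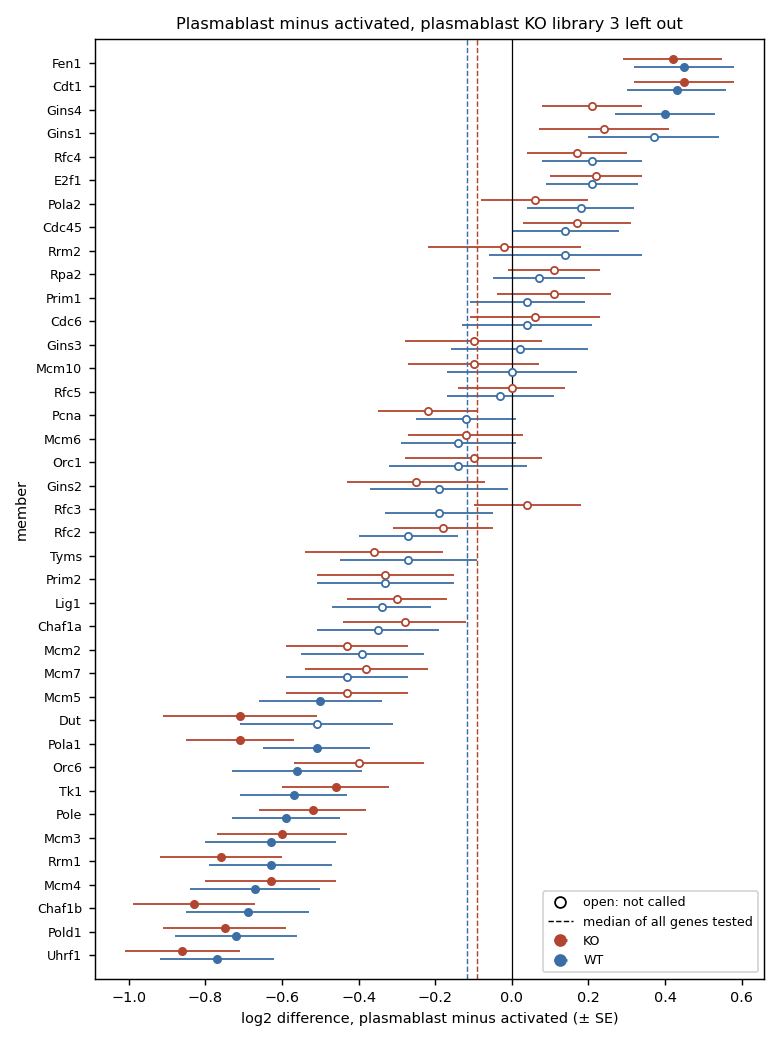
Log2 difference of log2(RPKM + 1), plasmablast minus activated, with its SE, for the 39 genes in KO (red, upper) and WT (blue, lower), plasmablast KO library 3 left out; filled points are called at an adjusted p under 0.05, and dashed lines are the medians of all genes. Fen1 and Cdt1 are called higher and Uhrf1, Pold1 and Chaf1b are the lowest in WT.

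The size of these counts depended on scaling and on single libraries. All genes together had a median difference of -0.090 in KO and -0.117 in WT, and the members -0.222 in KO and -0.194 in WT. With each library centred on its own median, 8 members were called in KO (3 higher, 5 lower) and 11 in WT (5 higher, 6 lower), so the split moved towards higher. The background after centring was 31.8% of genes in KO (19.2% higher, 12.5% lower) and 33.7% in WT (20.1% higher, 13.6% lower). Of these, 7 of the 12 KO calls and 9 of the 14 WT calls were shared with the uncentred fit. Cdt1, Fen1, Uhrf1, Chaf1b, Pold1 and Pola1 were called in both genotypes under both scalings, while Mcm3, Mcm4 and Mcm5 were not called after centring. Over the 15 alternatives of this fit, Uhrf1 and Chaf1b kept their calls in both genotypes and Pola1 kept its call in KO. Every other called member lost its call in at least 1. Tk1 in KO and Mcm5 in WT each lost the call in 6 and Orc6 in WT in 5, with the replicate block among them for all 3. Fen1, Mcm3 and, in WT, Gins4 each lost it in 4, and Cdt1 lost it in 3 in each genotype. All calls kept their direction. In this fit each plasmablast group holds 2 libraries, so leaving out another leaves 1, and the spread then comes from the other groups. Counts of calls from those fits therefore rest on 1 plasmablast library. Further leaving out plasmablast KO library 1 or 2 left 3 or 7 calls in KO. Further leaving out activated WT library 1 or 2, or plasmablast WT library 1 or 2, left 9, 7, 9 and 5 calls in WT.

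Other genes of the pathway were followed as lists that were likewise chosen with earlier results of these data known. Without plasmablast KO library 3, of 52 further replication genes 4 were higher and 15 lower in KO plasmablasts than in KO activated cells, and 2 were higher and 15 lower in WT plasmablasts than in WT activated cells. The shares of all genes in the same fits were 12.2% higher and 18.5% lower in KO, and 12% higher and 21.4% lower in WT. Medians over this list were -0.31 in KO and -0.33 in WT. After centring the counts were 5 higher and 7 lower in KO, and 6 higher and 5 lower in WT. Pold4, the small accessory subunit of polymerase delta, had -1.43 in KO (SE 0.16, adjusted p = 8.53e-05) and -1.45 in WT (SE 0.16, adjusted p = 6.28e-05, limma). Dck, which salvages deoxycytidine, had -0.90 in KO and -0.69 in WT, both called. Hells, a chromatin remodeller, had -0.95 in WT (adjusted p = 0.00328), and Wdhd1, which links polymerase alpha to the helicase, had -0.76 in KO (adjusted p = 0.00373, limma).

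Of 30 regulators of the G1 to S step, none was higher and 5 were lower in KO plasmablasts, and 1 was higher and 10 lower in WT plasmablasts (medians -0.16 in KO and -0.23 in WT), to be read against the same shares of all genes. After centring 3 were higher and 4 lower in KO, and 2 were higher and 6 lower in WT. Mybl2, a MYB family factor of cycling cells, had -0.84 in KO and -1.01 in WT. In WT, Cdkn2c, an inhibitor of the G1 kinases, had 0.90 and Myc had -0.86, and in KO the cyclin gene Ccnd3 had -0.75 and the E2F partner gene Tfdp1 had -0.64. Of 21 G2/M genes, none was higher and 6 were lower in KO plasmablasts, where the largest were Kif23 and Kif20a at -0.68 each and Ccnb2 at -0.53. In WT plasmablasts 1, Mki67 (0.60), was higher and none lower. The medians of the G2/M list were -0.17 in KO and 0.10 in WT. After centring 1 was higher and 1 lower in KO, and 4 were higher and none lower in WT. The G2/M counts too are to be read against the shares of all genes. The list summed to 879.8 and 1051 RPKM in activated KO libraries 1 and 2 and 1245 RPKM in the library labelled KO number 3. Plasmablast KO libraries 1 and 2 had 904.6 and 1019 RPKM. Libraries labelled activated WT had 1019 to 1050 RPKM, and plasmablast WT had 1273 and 1011 RPKM. Number 3 goes against its label, so these counts cannot be read as a difference between genotypes. The interaction called no gene. In naive cells none of 50 further replication genes and none of 20 G2/M genes was called between KO and WT (medians -0.16 and -0.55), and of 28 G1 to S regulators Myb was called at -1.50 (SE 0.35, adjusted p = 0.0486, limma). Between KO and WT in activated cells and in plasmablasts no gene of these lists was called.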

How the data were processed

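Libraries were made from polyA RNA by SMART-seq v4 cDNA synthesis followed by Nextera XT, per the labels' protocols. The deposited values are RPKM, which the authors gave in separate tables for naive B cells and for B cells from culture. Reads were aligned to mm10 with STAR, per the submitters' processing notes. The version, counting tool, annotation and rule for listing genes are not given in the sources used here. The reads assigned to genes were estimated from the steps between low RPKM values, and 100% of these were within 0.2 of a whole number. The estimate sets the precision only roughly, so no counting intervals are given.

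Values were analysed as log2(RPKM + 1), which understates the changes of low genes, in R 4.3.3 with limma 3.58.1 (moderated test, two-sided, with trended prior variance). A single model per table held the group means, over genes that reached 1 RPKM in 2 libraries or more: 10137 naive and 9986 cultured genes. P-values were adjusted by Benjamini-Hochberg over all of them, and those under 0.05 count as calls. The difference over both guides is the mean of the differences within each guide's arm. The tables were made separately, so nothing was tested across them. The procedure was tested on simulated data. The members and lists were chosen with earlier results of these data known.

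Genes named per comparison were every called member, or, above 12 calls, the member with the largest difference of each role and, below 3 calls, the 3 largest differences. Values per library are given for the member of each role with the highest cultured mean and for members called between KO and WT. Pold1 and Rfc3 in naive cells, Mcm3 in activated cells and single values beyond this rule were chosen after their values were seen. Alternatives were a pseudocount of 0.1, no filter on low values, centring on library medians, the replicate letter or number as a block, and leaving out libraries. Deviations of same-numbered libraries from their group means had correlations from -0.105 to 0.176 (naive) and from -0.243 to 0.254 (cultured). These cannot exclude pairing. Deviations of the plasmablast WT libraries mirror each other, and the activated libraries numbered 3 go against their labels. The main fits assumed no pairing by letter or number, and the block is given as an alternative.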

Additional observations from a re-analysis of the deposited data

How the results depend on the processing

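Plasmablast KO library 3 had 51270 estimated reads, which limits values that rest on it. Of the member counts under all alternatives, 188 stayed within 1.5 times and 40 moved. The 188 include every count of 0 set against 0, as in the comparisons that called no member in any run. They therefore do not show that counts above 0 were stable. Of the median differences, 221 moved by less than the SD between libraries and 7 moved further. That SD is a wide tolerance. It was 0.175 in naive cells, where the median over both guides was -0.208, and in cultured cells it always included plasmablast KO library 3. The causes were not tested beyond the construction of each alternative.

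Over the fits that left out 1 library, the calls in naive KO against WT ranged from 0 to 2 for both guides and from 0 to 4 for guide 1. They ranged from 0 to 12 in KO plasmablasts against KO activated cells and from 0 to 14 in WT plasmablasts against WT activated cells, and without plasmablast KO library 3 from 3 to 16 in KO and from 5 to 19 in WT (9 without activated WT library 1 and 9 without plasmablast WT library 1). Some of these fits left 1 library in a plasmablast group, so the ends of the ranges may rest on 1 library. Leaving out naive KO and WT guide 1 libraries A together gave 2 calls for both guides and 0 for guide 1. With both activated libraries numbered 3 left out, KO plasmablasts had 0 calls against KO activated cells. With plasmablast KO library 3 out as well there were 12 in KO and 18 in WT. Centring gave 0 calls in KO plasmablasts against KO activated cells with all libraries. With the replicate number or letter as a block, there were 0 calls for guide 1 and 0 in KO plasmablasts against KO activated cells, and without plasmablast KO library 3 there were 11 in KO and 12 in WT. In naive cells the block also left 0 of 28 G1 to S regulators called, where Myb had been called without it. No other comparison of KO with WT, and neither interaction, called a member under any alternative run.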
